A study of Mus musculus with 16 samples.

Results

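Ide, the gene of insulin-degrading enzyme, was followed in every library of a mouse study that compared animals whose movement recovered spontaneously after stroke with animals whose movement did not. It is 1 gene of 263 in the deposited ipsilesional table and of 417 in the contralesional table, and 1 of the 19 genes that stand in both. It was selected on its measured levels, as a gene with many reads and a higher mean in recovered mice on both sides, so the group differences of Ide given here describe that choice and carry no test.

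All 8 animals were C57Bl6 mice that had undergone stroke and had been scored on a horizontal rotating beam, and RNA came from the primary motor cortex on the lesioned side (ipsilesional) and on the opposite side (contralesional). The labels place animals 6, 23 and 28 in the recovered group and animals 17, 19, 20, 21 and 29 in the non-recovered group, which makes 3 and 5 libraries per hemisphere and 16 in all. They name no substrain, genotype, drug or unlesioned control, and the sources used here do not state how the stroke was made, the age of the animals or the time of sampling. The labels disagree on 1 point: the contralesional libraries numbered 6 and 23 carry each other's description code, although both animals are recovered.

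Insulin-degrading enzyme is a zinc metallopeptidase of the M16 family that encloses short peptides in a chamber and cuts them there. Its known substrates include insulin, amylin, glucagon and the amyloid-beta peptide, and in brain it is studied as an enzyme that clears amyloid-beta. Many cell types make it, so a bulk cortex library sums over them, and a lower level in such a sample cannot be told apart from fewer cells that express the gene.

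Ide (ENSMUSG00000056999.15) lies on the minus strand of chromosome 19, from 37268743 to 37337852 in mm10, by GENCODE M21. Its exons cover 7506 nt when all annotated forms are merged. The annotation lists 5 transcripts, of which only Ide-201 is protein-coding, with 24 exons over 4962 nt and a coding start that is marked as incomplete. The stretch below is shown because it holds the codons of the zinc-binding motif of the active site (capitals). The whole stretch lies in exon 2 of Ide-201, at chr19:37329091-37329188 on the minus strand, and is printed 5′ to 3′ from the GENCODE transcript.
Ide-201: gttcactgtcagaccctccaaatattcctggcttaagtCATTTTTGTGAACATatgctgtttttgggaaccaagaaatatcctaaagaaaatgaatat
Of the 5 annotated transcripts, 2 hold these codons: Ide-201 and Ide-204, a form with a retained intron. The deposited values give 1 level per gene, so forms with and without the active site were not separated here.

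Ide was well measured. It had between 1532 and 2711 reads per ipsilesional library and between 1598 and 2826 per contralesional library, where the totals to which libraries were scaled ran from 19116419 to 26310885 and from 17972791 to 27895465 reads. By mean reads it was 52nd of the 263 ipsilesional genes and 42nd of the 417 contralesional ones. Counting error alone gives a standard error of 0.028 to 0.037 on the log2 scale on the lesioned side and 0.027 to 0.036 on the opposite side. These errors cover the counting of reads and no other source of variation.

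Beside the lesion, Ide reached 6.73 log2 CPM (reads relative to the scaling total of the library, on a log2 scale) in recovered animal 6, 6.79 in animal 23 and 6.69 in animal 28. Among non-recovered animals it was 6.30 in animal 17, 6.33 in animal 19, 6.09 in animal 20, 6.13 in animal 21 and 6.70 in animal 29. The 3 recovered libraries were high and close together, 4 of the 5 non-recovered ones were low, and animal 29 lay among the recovered animals. The groups therefore overlapped, whereas 42.2% of the 263 listed genes had groups that did not. On the linear scale this is 103 to 110 CPM in recovered animals, 104 CPM in animal 29 and 68.3 to 80.2 CPM in the other 4 non-recovered animals.

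Opposite the lesion the order was alike. Recovered animals 6, 23 and 28 stood at 6.74, 6.60 and 6.67 log2 CPM. Non-recovered animals 17, 19, 20 and 21 stood at 6.25, 6.33, 6.20 and 6.28, and animal 29 at 6.69. Animal 29 was again as high as the recovered mice, second only to animal 6, and the groups again overlapped; 43.2% of the 417 listed contralesional genes had groups that did not.

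**Figure D1:**
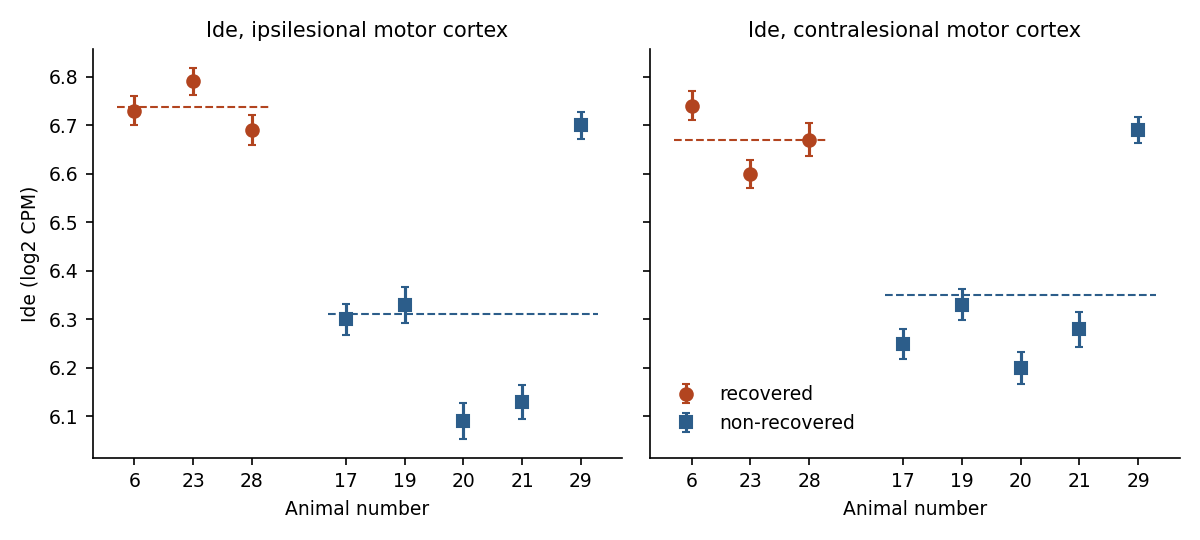
Ide in each library (log2 CPM, vertical axis) by animal number (horizontal axis) in ipsilesional and contralesional motor cortex, with circles for recovered and squares for non-recovered animals. Bars are 1 standard error of read counting and dashed lines are group means. Animal 29 sits with the recovered animals at 6.70 and 6.69 log2 CPM, and the other 4 non-recovered animals lie at 6.33 or below.

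The group means were 6.74 ± 0.05 log2 CPM in recovered mice (SD, n = 3) and 6.31 ± 0.24 in non-recovered mice (SD, n = 5) beside the lesion, a log2 fold change of 0.42 ± 0.13 (SE from limma) or a ratio of 1.34. Opposite the lesion they were 6.67 ± 0.07 and 6.35 ± 0.19 (same n), a log2 fold change of 0.32 ± 0.11 or a ratio of 1.25. The SD of the non-recovered group was the larger on both sides. Without animal 29 the log2 fold changes were 0.52 and 0.40. The ipsilesional difference exceeded the contralesional one by 0.11, with an SE of 0.17 when the pairing of hemispheres is ignored. With the animal number as a block the SE was 0.10, and with the description code 0.09, so the difference was close to its error in either case. By fold change Ide was 20th from the top of the 263 ipsilesional genes, with Casp1, the inflammatory caspase gene (0.45), just above it. In the contralesional table it was 44th of 417, with Pcsk5, a proprotein convertase gene (0.32), just below it.

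Across the 8 animals the levels fell into 2 clusters of 4 on each side. Beside the lesion the largest step between neighbouring animals was 0.361 on the log2 scale, from 6.33 in animal 19 to 6.69 in animal 28, and it took up 52.2% of the whole range. Across that step the CPM rose by a factor of 1.28. The 4 upper libraries spanned 0.10 and the 4 lower ones 0.23, with a smaller step of 0.18 inside the lower cluster between animals 20 and 21 and animals 17 and 19. Opposite the lesion the largest step was 0.272, from 6.33 in animal 19 to 6.60 in animal 23, or 50.5% of the range and a factor of 1.21 in CPM. There the clusters spanned 0.14 and 0.13 and the next step was 0.07. On both sides the upper cluster held animals 6, 23, 28 and 29 and the lower one animals 17, 19, 20 and 21. Each step was several times the counting error of a library. With 8 animals this is a description of where the values lie, and no test of bimodality was made.

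A step of that share of the range was not rare among the listed genes. Among the 263 ipsilesional genes, 29 had a largest step of at least Ide's share, against a median share of 34.9% of the range over all listed genes. The largest step divided the animals 4 and 4 in 22 genes, and no other of these reached Ide's share. Among the 417 contralesional genes, 46 reached Ide's share, the median was 35.3%, and 27 genes were divided 4 and 4. Of those 1 other gene reached Ide's share, Mtx3, a mitochondrial outer membrane protein gene named here after its values were seen. The condition of 4 and 4 is read from Ide's own values, and a gene chosen as higher in the 3 recovered animals is likelier to have them on one side of its step, so these counts do not set Ide apart. Of the 19 genes in both tables, 3 had their largest step between the same animals on both sides. These were Ide, Bach2, a transcription factor gene for which animal 23 alone was low, and Npas4, the activity-dependent transcription factor gene, for which animals 6, 19 and 23 were low. The last 2 were likewise named after their values were seen.

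**Figure D2:**
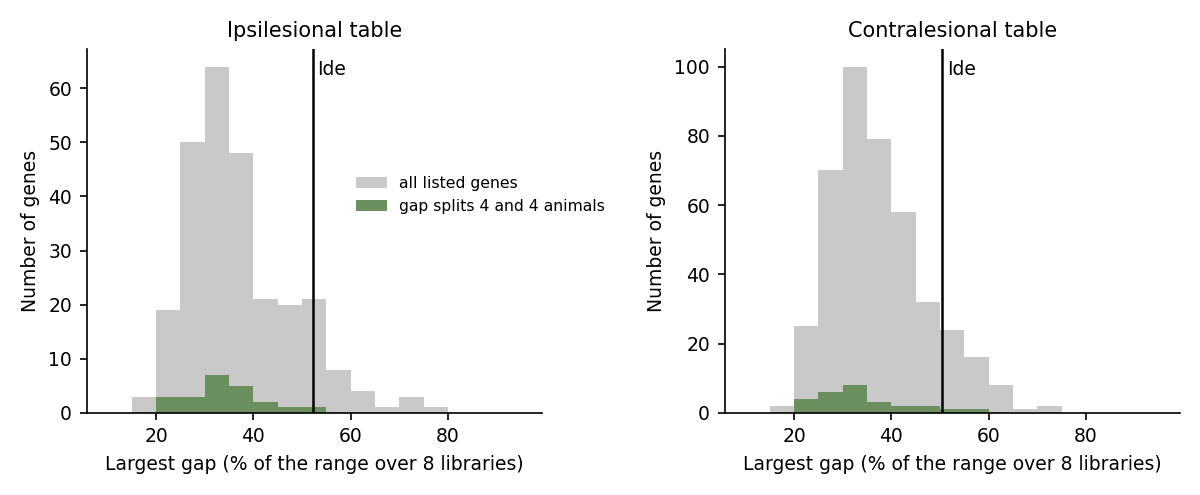
Histograms of the largest step between neighbouring libraries as a percentage of each gene's range (horizontal axis; number of genes on the vertical axis) for all listed genes (grey) and for those whose step divides the animals 4 and 4 (green). The vertical line marks Ide, at 52.2% in the ipsilesional and 50.5% in the contralesional table. At or above it lie 29 of 263 and 46 of 417 genes.

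Since the group means had been used to choose the gene, the correspondence between hemispheres was examined on the deviations of each animal from its group mean. Animal 29 stood 0.39 above the non-recovered mean beside the lesion and 0.34 above it opposite the lesion. Animal 20 was the lowest of its group on both sides, at -0.22 and -0.15. The deviations of animals 17, 19 and 21 were -0.01, 0.01 and -0.18 beside the lesion and -0.10, -0.02 and -0.07 opposite it. In recovered animals the deviations stayed within 0.07 on either side. Over the 8 animals Pearson's r of the deviations was 0.89 (exact permutation of animals within groups, 2-sided p = 0.0542, adjusted p = 0.108 over 2 measures), and Spearman's rho was 0.55 (exact permutation p = 0.207, adjusted p = 0.207). With contralesional libraries joined by description code in place of animal number, r was 0.92 (exact permutation p = 0.0222). Without animals 20 and 21, the 2 farthest from the ipsilesional median, r was 0.90 (exact permutation p = 0.222 over 36 arrangements). Without animal 29, r fell to 0.30 (exact permutation p = 0.528, n = 7), so the relation rests on that animal.

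**Figure D3:**
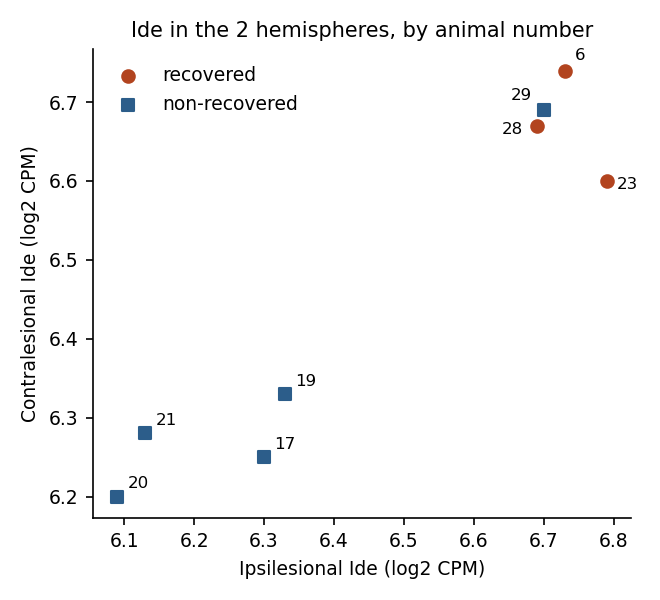
Contralesional against ipsilesional Ide (log2 CPM on both axes) by animal number, with circles for recovered and squares for non-recovered animals. Animals 6, 23, 28 and 29 lie at 6.60 or above on both axes, and animals 17, 19, 20 and 21 at 6.33 or below. The tables were normalized separately, so the axes are not compared with each other.

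The description codes of some libraries share their first parts, and within each hemisphere 3 of the 5 prefixes belong to 1 animal each. Of these, SP2.7 and SP4.4 belong to animals 6 and 23, exchanged between the hemispheres. The code prefix SP4.3 belongs to animals 19, 20 and 21, all non-recovered, whose Ide spanned 6.09 to 6.33 log2 CPM beside the lesion and 6.20 to 6.33 opposite it, the whole span of the lower cluster. The prefix SP4.6 belongs to recovered animal 28 and non-recovered animal 29, which stood at 6.69 and 6.70 beside the lesion and at 6.67 and 6.69 opposite it. SP4.6 is the only prefix with animals of both groups, and within it the recovered animal was 0.02 lower on the log2 scale on each side (-0.02 and -0.02, against 0.42 and 0.32 over all animals). A difference of 0.02 is below the counting error of these libraries, which was 0.027 to 0.034. Among the 131 ipsilesional genes with a higher mean in recovered mice, 118 (90.1%) were also higher in animal 28 than in animal 29, and Ide was not among them. In the contralesional table this held for 138 of 147 genes (93.9%), again without Ide. The means that define these genes include animals 28 and 29, so high shares are partly built in and do not set Ide apart. What the codes stand for is not given in the sources used here, and their part in Ide's level was not tested.

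The genes beside Ide on the chromosome were taken from a list of 13 neighbours. Of the 20 other protein-coding genes within 1 Mb of Ide, 1 stood in each table. Btaf1, the gene of an ATPase that removes TATA-binding protein from DNA, was listed beside the lesion (chromosome 19, 36926079 to 37012752, plus strand, 256.0 kb from Ide). Fgfbp3, a gene of a secreted protein that binds fibroblast growth factors, was listed opposite the lesion (chromosome 19, 36917550 to 36919615, minus strand, 349.1 kb from Ide). The genes between Fgfbp3 and Ide also include Cpeb3 and March5, and no value of either was analysed here. As background, a copy-number gain that includes Ide and Fgfbp3 has been described among C57BL/6J mice. DNA copy number was not measured in these data, and its part in the levels was not tested.

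Btaf1 stood at 5.50, 5.79 and 5.74 log2 CPM in recovered animals 6, 23 and 28. In non-recovered animals 17, 19, 20, 21 and 29 it stood at 5.24, 5.22, 5.37, 5.10 and 5.63. The 4 highest libraries were again those of animals 6, 23, 28 and 29, and the groups overlapped through animal 29. The log2 fold change was 0.37 ± 0.13 (limma adjusted p = 0.0601 over the 263 listed genes), where 1.14% of genes passed an adjusted p of 0.05. Btaf1 passed limma's unadjusted threshold of 0.05, as did 37.3% of all listed genes in that direction. The 4 libraries were separated from the other 4 by 0.13, from 5.37 to 5.50, which is a few times the counting error of 0.040 to 0.054 per library.

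Fgfbp3 stood at 2.54, 2.83 and 2.36 log2 CPM in recovered animals 6, 23 and 28 opposite the lesion. In non-recovered animals 17, 19, 20, 21 and 29 it stood at 2.26, 2.32, 2.33, 2.25 and 2.43. The same 4 animals were the highest, but the step from animal 20 to animal 28 was smaller than the counting error of 0.108 to 0.151 that 91 to 180 reads give. The log2 fold change was 0.26 ± 0.10 (limma adjusted p = 0.0591 over the 417 listed genes, of which 7.91% passed). Fgfbp3 passed the unadjusted threshold too, as did 25.7% of all listed genes in that direction. Without animal 23 its log2 fold change was 0.13.

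**Figure D4:**
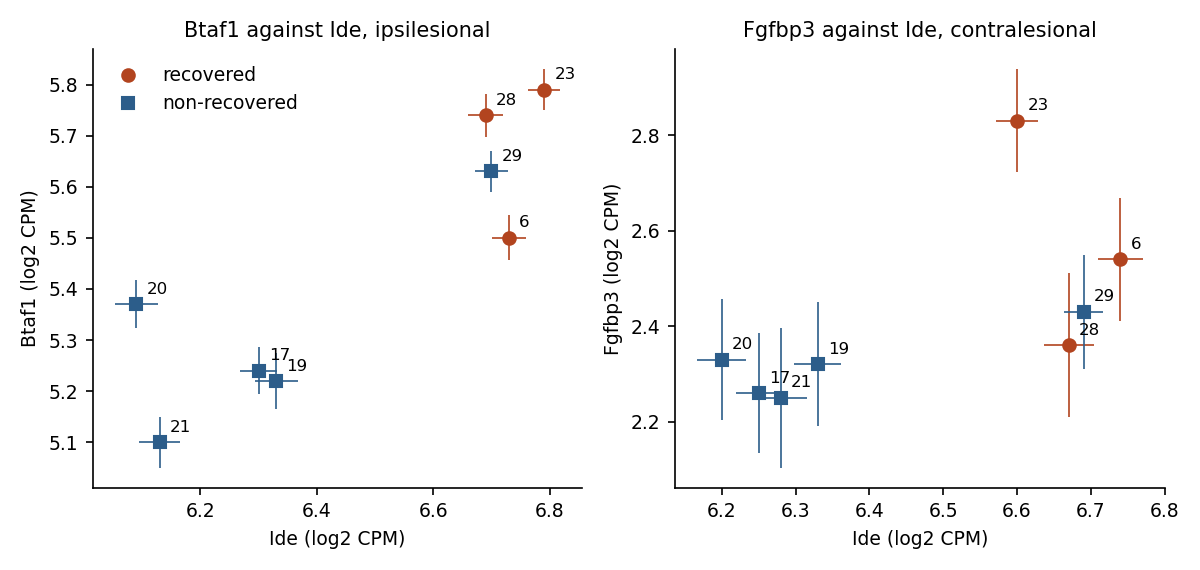
Btaf1 against Ide in ipsilesional libraries and Fgfbp3 against Ide in contralesional libraries (log2 CPM on all axes), with circles for recovered and squares for non-recovered animals, numbers for animals and bars of 1 standard error of read counting. Animals 6, 23, 28 and 29 are the 4 highest for each gene; for Fgfbp3 animals 28 and 20 differ by less than their counting error (2.36 and 2.33).

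Sharing the 4 highest animals with Ide was not confined to neighbours. In 18 ipsilesional genes (6.84%), Ide and Btaf1 among them, the 4 highest animals were the recovered ones and animal 29. With another non-recovered animal in its place such sets held for 11 to 27 genes. In the contralesional table the set with animal 29 held for 33 genes (7.91%), Ide and Fgfbp3 among them, and those with another animal for 13 to 30. Over the 8 ipsilesional libraries Btaf1 had r = 0.86 with Ide, while the 13 listed genes farther away on chromosome 19 ranged from -0.76 to 0.48. Over the 8 contralesional libraries Fgfbp3 had r = 0.61, within the range of -0.91 to 0.82 of the 19 farther genes; the highest of these was Sorcs3. Of the farther genes, 9 of 13 and 14 of 19 had a lower mean in recovered mice, the direction opposite to that of Ide. Over all listed genes this held for 132 of 263 and 270 of 417. The median r with Ide over all other listed genes was -0.19 beside the lesion and -0.36 opposite it. Among all 262 other ipsilesional genes Btaf1 was 6th by r, and Fgfbp3 was 57th of 416 opposite the lesion. These correlations share the group difference, the library and its scaling total, and are given as descriptions. Over the deviations from group means, which leave the group difference out, r with Ide was 0.67 for Btaf1 and 0.20 for Fgfbp3.

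**Figure D5:**
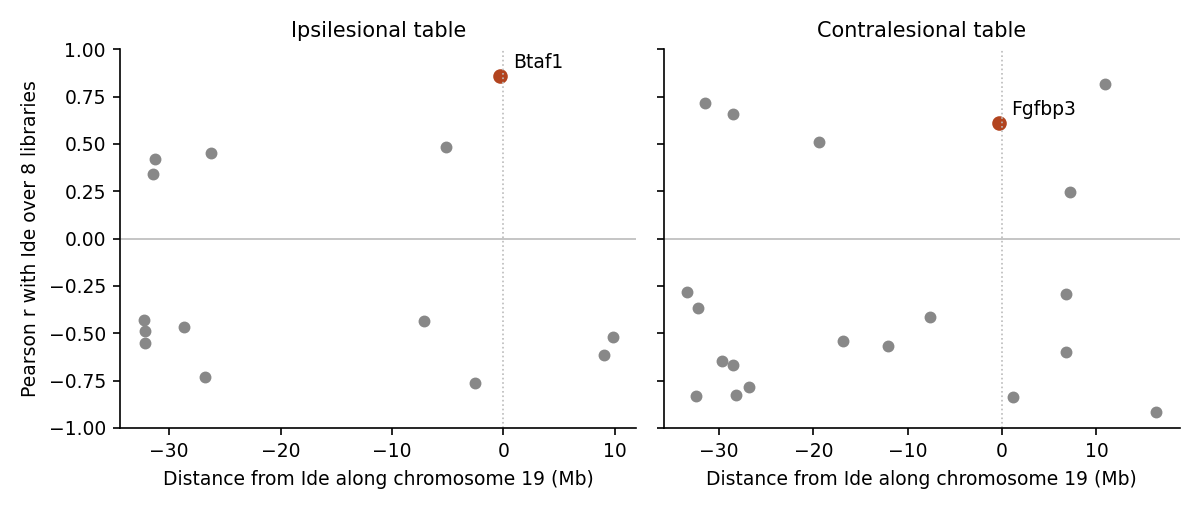
Pearson's r with Ide over 8 libraries (vertical axis) for the listed genes of chromosome 19, by distance from Ide in Mb (horizontal axis). Btaf1 lies at 0.86 and Fgfbp3 at 0.61. Of the farther genes, 9 of 13 ipsilesional and 14 of 19 contralesional ones had a lower mean in recovered mice. Over all listed genes this held for 132 of 263 and 270 of 417.

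The genes whose levels ran most like Ide's beside the lesion, out of 262 others, were Clgn, an endoplasmic reticulum chaperone gene (r = 0.94), and Nefh, the heavy neurofilament chain gene (r = 0.93). Pmepa1, a membrane protein gene of transforming growth factor signalling (r = 0.90), the transcription elongation factor gene Ell2 (r = 0.89) and the olfactomedin gene Olfm3 (r = 0.86) followed. Over the deviations from group means the r of these 5 genes was 0.85, 0.84, 0.74, 0.71 and 0.76 in the same order; they were chosen on the same libraries, so these values are part of that choice. Nefh stood at 6.83, 6.93 and 6.94 log2 CPM in recovered animals 6, 23 and 28 and at 6.77 in animal 29, against 6.43 to 6.61 in the other 4. Its groups did not overlap. The most opposite genes were those of neurturin, Nrtn (r = -0.93), C2cd2l (r = -0.93) and the ferredoxin Fdx1 (r = -0.93).

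Opposite the lesion the most similar genes were those of the phosphatidylcholine transfer protein, Pctp (r = 0.90), and of the ubiquitin ligase Dtx2 (r = 0.89). The secretogranin gene Scg2 (r = 0.87), Supt3, a subunit gene of the SAGA complex (r = 0.86), and Tmem130 (r = 0.86) came next. The most opposite were Dnah1, an axonemal dynein heavy chain (r = -0.93), Rbm20, a splicing factor (r = -0.91), and the orphan receptor gene Gpr6 (r = -0.90). Of the 10 most similar genes of both sides only Scg2 stands in both tables, so the lists of the hemispheres could hardly overlap. Pctp passed the adjusted threshold (log2 fold change 0.49 ± 0.12, limma adjusted p = 0.0469) with 23 to 40 reads per library, and so did Gpr6 (-0.71 ± 0.18, limma adjusted p = 0.0469) with 13 to 39. Neither passed without animal 17, 19, 20, 21, 23 or 28 (limma adjusted p from 0.0552 to 0.0768), and Gpr6 did not pass without animal 6 either. Pctp and Gpr6 were named for their r with Ide over these libraries, and that r shares the group difference. Their p values are therefore part of that choice and no separate test.

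Other genes of Ide's biology were looked up in 6 lists of 136 genes. Beside the lesion 2 were listed, Btaf1 and Plau, the urokinase gene, whose protease activates plasminogen. Plau stood at 2.59 ± 0.56 log2 CPM in recovered (SD, n = 3) and 2.18 ± 0.13 in non-recovered mice (SD, n = 5), and it did not pass (0.41 ± 0.22, limma adjusted p = 0.101). Unadjusted, 1 of these 2 passed, Btaf1, against 74.5% of all listed genes. Opposite the lesion 10 were listed and 0 passed an adjusted p of 0.05, where 7.91% of all listed genes did. Unadjusted, 7 of the 10 passed, against 73.4% of all listed genes. With voom weights 0 of the 417 listed genes passed the adjusted threshold and 356 the unadjusted one. The adjustment ran over genes already selected on these samples, so passing or not passing is a description and no result about these lists. No other member of the M16 peptidase list and no gene of the amyloid precursor list stood in either table.

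Of 23 other peptidases of amyloid-beta and neuropeptides, 2 were listed opposite the lesion. Mme, the gene of neprilysin, which like Ide degrades amyloid-beta, stood at 2.95 ± 0.08 log2 CPM in recovered mice (SD, n = 3) and at 3.21 ± 0.18 in non-recovered mice (SD, n = 5; -0.25 ± 0.11, limma adjusted p = 0.0618). Mmp2, a matrix metallopeptidase gene, had the opposite sign (0.43 ± 0.18, limma adjusted p = 0.0624). Of 18 genes for peptides on the substrate list, 3 were listed. The growth factor gene Igf1 (-0.24 ± 0.10) passed the unadjusted threshold only, as 47.7% of all listed genes did in that direction, and the enkephalin gene Penk (-0.25 ± 0.13) and the somatostatin gene Sst (0.14 ± 0.07) did not. Insulin and IGF signalling had 4 of 53 genes listed. The kinase gene Sgk1 (-0.25 ± 0.08), the adaptor gene Shc1 (-0.23 ± 0.08) and the transcription factor gene Foxo6 (0.50 ± 0.14) passed the unadjusted threshold, and the receptor gene Igf1r (-0.15 ± 0.08) did not. The median log2 fold change of these 4 was -0.19, as was that of all 417 listed genes. The signs of Igf1r and Sst turned to 0.12 and -0.01 when the trend of each library on exonic length was removed.

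Other measures that moved with the animals were read beside Ide. With each contralesional library's trend on exonic length removed, Ide's log2 fold change was 0.48 in place of 0.32, and beside the lesion it was 0.43 in place of 0.42. The contralesional slope per doubling of length was -0.111 to -0.016 in recovered and 0.024 to 0.044 in non-recovered animals, without overlap. Beside the lesion the slopes overlapped, at 0.005 to 0.039 and -0.045 to 0.017. These slopes were taken over the listed genes only. The summed level of myeloid genes was high in 1 ipsilesional library. The 4 listed of 14 microglia and macrophage markers summed to 149 CPM in animal 6, against at most 22.4 CPM in non-recovered animals. In animal 6 Gpnmb (2151 reads), C3 (824) and Itgam (524) were at their highest. Lyve1 was not, with 17 reads in animal 6 and 46 in animal 29. Ide in animal 6 lay between animals 23 and 28. The 2 listed of 5 red blood cell genes summed, opposite the lesion, to 6.44 to 12.5 CPM in recovered and 3.18 to 7.02 CPM in non-recovered mice, and animals 6, 23, 28 and 29 were again the highest. The 6 listed of 10 striatal projection neuron genes summed there to 121 to 130 CPM in recovered mice and 143 to 191 CPM in non-recovered mice, the lowest of which was animal 29 at 143 CPM. Beside the lesion 1 of the 10, Pde10a, stood at 39.6 to 53.6 CPM in recovered and 49.7 to 67.0 CPM in non-recovered mice, with r = -0.80 to Ide over the 8 libraries; opposite it the sum had r = -0.83. The 2 listed of 8 inhibitory neuron genes summed beside the lesion to 441 to 503 CPM in recovered and 376 to 445 CPM in non-recovered mice. The listed meningeal fibroblast markers, 4 of 13 beside the lesion, summed to 353 to 644 CPM in recovered and 420 to 875 CPM in non-recovered mice. Opposite the lesion 3 of 13 summed to 66.2 to 90.9 and 88.3 to 105 CPM. The oligodendrocyte and the ependymal list were represented by 1 gene each, Bmp4 beside the lesion and Cfap65 opposite it. Excitatory neuron markers were represented by 1 of 11, Calb1, beside the lesion and by 0 opposite it, and no astrocyte or endothelial marker stood in either table, so the cortical label was not checked by its defining genes. The part of these measures in Ide's level was not tested.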

How the data were processed

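RNA was extracted with Trizol and an RNeasy kit and sequenced as stranded poly(A) libraries, per the labels' protocols. Trimmomatic 0.38, STAR 2.5.1b, bcl2fastq, edgeR and the build mm10 appear in the submitters' processing notes. The sources used here do not state the read counter or the rule that selected genes. The authors deposited log2 CPM for selected genes, 1 table per hemisphere, normalized separately, so levels were not compared between tables. Solving the deposited log2 values for whole reads with a prior count of 2 gave whole numbers within 0.01 reads for 100% of values; the totals may include a normalization factor.

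Groups and animal numbers came from the titles, each a separate animal. Each table was fitted with limma 3.58.1 in R 4.3.3, with no further filter or pseudocount and with Benjamini-Hochberg adjustment over the listed genes, which were already selected on these samples. The fit was also run on simulated counts with known changes. Their spread was set in advance and not estimated from these data, so that run does not show how the fit performs on them. Ide's p was not used, because the gene was chosen on that contrast. Ide, the lists and the tests were chosen with earlier results of these data known. Named genes were Ide, listed members of 6 gene lists, the 5 highest and 3 lowest correlations with Ide, and the 2 genes on either side of it in fold change, some of which are not reported here; 10 marker lists were read beside them. Hemispheres were paired by animal number. Deviations over the 18 other shared genes correlated by 0.12 to 0.87 for the same number (mean 0.53). For the same code they correlated by -0.10 to 0.87 (mean 0.47), and for other pairs by -0.76 to 0.74 (mean -0.09). Number and code differ only for the contralesional libraries 6 and 23, so these values do not settle which label is right. Lengths and positions came from GENCODE M21, matched for 263 of 263 and 415 of 417 genes. Scale, normalization, weights, filter, length trend, pairing and leaving out each animal were varied.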

Additional observations from a re-analysis of the deposited data

Results flagged for a closer look

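In contralesional cortex the Ide level of animal 29 stood apart from the rest of its non-recovered group. At 6.69 log2 CPM it was well above the next animal at 6.33, and that gap made up 0.735 of the group's range, above Dixon's critical value of 0.71 for 5 samples. Beside the lesion the same animal was also the highest, but the share was 0.618, below that value. Of 38 groups of 5 examined in this way, 1 for each named gene and table, this was the only 1 past the critical value. Chance alone gives about 1 in 20, so 1 of 38 is no more than chance gives. Some of these genes were named for their r with Ide in the same libraries, so the groups are not independent.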

How the results depend on the processing

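Ide stayed higher in recovered mice under all 16 alternatives run per table, with log2 fold changes of 0.36 to 0.52 beside the lesion and 0.28 to 0.48 opposite it. Leaving out 1 animal gave 0.37 to 0.52 and 0.28 to 0.40. The difference between hemispheres was 0.11 with an SE of 0.10 with the animal number as a replicate block and 0.09 with the description code, against 0.17 without a block, and 0.05 to 0.14 without 1 animal. With the length trend removed, Ide's log2 fold change was instead the larger opposite the lesion (0.48), so the sign of this difference was not stable. The difference between hemispheres was not itself fitted in that setting. The largest step of Ide took up 54.3% and 50.1% of the range in linear CPM, and 52.2% to 56.4% and 50.5% to 62.6% without 1 animal. The same-animal r was 0.89 by animal number (exact permutation p = 0.0542, adjusted p = 0.108). By description code it was 0.92 (exact permutation p = 0.0222, not adjusted), and without 1 animal it was 0.30 to 0.94. Spearman's rho was 0.55 (exact permutation p = 0.207).

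The counts of listed genes past an adjusted p of 0.05 were 3 and 33. Unadjusted they were 196 and 306. They were 1 and 3 on log2(CPM + 1), 39 (15 higher) and 77 (70 higher) after quantile normalization, and 33 (2 higher) and 108 (82 higher) after median centring, against 0 and 8 higher in the main counts. They were 0 and 0 with voom (222 and 356 unadjusted), 1 and 96 (71 higher) with the length trend removed, and 3 opposite the lesion without genes under a mean of 1 log2 CPM, where fewer genes were tested. Without 1 animal they ranged from 0 to 18 and from 0 to 74. Beside the lesion the median log2 fold change of all listed genes was -0.13 in the main fit and -0.01 after quantile normalization. It was -0.18 after median centring and -0.08 with the length trend removed. Opposite the lesion it was -0.19 in the main fit and -0.11, -0.12 and -0.02 in the same order. The cause of the changed counts was not tested. Of 534 values for 36 other named results, 476 kept their direction and side of the threshold, 37 came past it, 18 fell short and 3 changed sign: Ell2 at -0.01 after quantile normalization, and Igf1r at 0.12 and Sst at -0.01 with the length trend removed. The alternatives for other genes and for the counts, other than the unadjusted threshold, and leaving out 1 animal for the step and the same-animal r, were chosen after seeing the data. With 8 animals and tables of selected genes, a separation of levels can be described but not tested against all genes.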
